A study of Mus musculus with 32 samples.

Results

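Cycling radial glia are the dividing stem cells of the embryonic cortex, and they were followed here from E12.5 to E17.5 in mouse dorsal telencephalon with intact or reduced Chd8. The members were selected on the UMI counts of 8 genes, where a UMI marks 1 captured RNA molecule. A cell counted as a member when its UMIs of the neural stem cell genes Sox2 and Pax6 summed to at least 2, its UMIs of the proliferation genes Top2a and Mki67 summed to at least 2, and Eomes, Neurod6, Gad2 and Olig1, which mark intermediate progenitors, excitatory neurons, inhibitory neurons and oligodendrocyte lineage cells, were all at 0. Of 143705 barcodes with at least 1000 UMIs and 500 genes, 17172 met the rule. They came from 32675 cells that met the same conditions without Top2a and Mki67, called the radial glia gate here, of which 10481 had no UMI of either gene and served as the non-cycling comparison.

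Radial glia line the ventricle and span the cortical wall with a long process, along which newborn neurons migrate. Their nuclei move with the cell cycle, replicating DNA away from the ventricle and dividing at its surface, and each division can renew the radial glial cell, yield a neuron or yield an intermediate progenitor. Early in corticogenesis they expand and make deep-layer neurons, later they make upper-layer neurons, and near birth many of them turn to making astrocytes and oligodendrocytes. CHD8 is a chromatin remodelling protein, and heterozygous loss of its gene in people is linked to autism and a large head.

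The embryos were C57BL/6J mice, either wild type (WT) or Chd8+/- (het), which carry 1 intact Chd8 allele in every tissue, and the nature of the mutant allele is not given in the sources used here. Tissue from 4 stages between E12.5 and E17.5 (the others being E14.5 and E16.0) was dissected without its medial part and dissociated fresh, and each of the 32 libraries came from 1 embryo. The 8 groups held 4 libraries each, 2 from males (M1, M2) and 2 from females (F1, F2), and each het embryo had a WT partner matched for litter and sex, which made 16 pairs. Litters differed between stages, so differences between stages are also differences between litters, and these cannot be told apart. Libraries held 14710700 to 66499900 UMIs, the member cells of a library together held 288535 to 29247600 UMIs, and levels below are in CPM, the UMIs of a gene per 1000000 UMIs of the library's members. For single genes the library's total was first multiplied by its TMM factor (0.852 to 1.09), a scaling that aligns libraries of different RNA composition. Sums over marker lists and lower bounds on a fold, which use UMIs summed over a group, carry no such factor.

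Members were most numerous at E12.5 and fewest at E17.5, which sets the precision of what follows. At E12.5 there were 1332 to 2124 members per WT library and 648 to 1693 per het library. At E17.5 there were 33 to 85 and 48 to 83. The median UMI count of a member cell also went down, from 12279 ± 567 (SD, n = 4) in WT at E12.5 to 7830 ± 1133 (SD, n = 4) in WT at E17.5. Het libraries M1, F1 and F2 at E12.5 were shallower than all WT libraries of that stage, with medians of 8465, 6510 and 8377 UMIs per member cell against 11513 to 12874, while het M2 had 13042. These same 3 libraries lay at 1 end of the first principal component of the E12.5 libraries, which held 62.9% of the variance. The genes with the most weight at the other end, where the WT libraries and het M2 lay, were globins (Hbb-y, Hba-a1, Hba-a2 and Hba-x), and the summed level of 6 red blood cell genes at E12.5 was 39.9 to 2069 CPM in het against 431 to 3988 CPM in WT. At E17.5 the first component (50.2% of the variance) put WT M1, het M1 and het F1 at 13.18 to 15.03, WT F1 at 1.39 and the other 4 libraries at -11.95 to -9.71. The genes with the most weight were histones, Fos and the chaperone Hspa5 at the end of the first 3 libraries, and Dlx1, Dlx2 and Tubb3 at the other. These 3 are called the libraries that stood apart below, a choice that leaves WT F1 between them and the rest. At E12.5 genotype therefore moved together with depth and with red blood cell RNA, and their parts in the genotype differences of that stage were not tested. At most 8 member barcodes were shared by any of the 496 pairs of libraries, 2.08% of the smaller set or less.

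The members carried the genes that define cortical radial glia. Vim, an intermediate filament of radial glia, stood at 1174 ± 65.5 CPM in WT members at E12.5 and 1645 ± 538 CPM at E17.5 (SD, n = 4 each). Hes5, a Notch target that keeps progenitors undifferentiated, stood at 267 ± 18.1 and 324 ± 34.8 CPM. Markers of other cell types were present beside them. The 10 excitatory neuron markers together summed to 266 to 344 CPM over the WT libraries at E12.5 and 309 to 633 CPM at E17.5, and 5 of the 10 rose and 1 fell between these stages (median log2 fold change 1.60), where 21.5% of all 11742 genes tested rose and 21.7% fell at an adjusted p of 0.05 (edgeR). The 8 intermediate progenitor markers summed to 387 to 489 and 349 to 577 CPM. At E17.5 the summed level of 8 interneuron markers was 8.63 to 498 CPM over the WT libraries and 87.1 to 466 CPM over the het libraries, against 1.88 to 11.7 CPM in WT at E12.5. The highest share of members with a UMI of Dlx2, an interneuron and subpallial gene, was 19.3%, in het M2 at E17.5, and the lowest at that stage was 1.45%, in WT M1. All 5 tested interneuron markers and 4 of 5 tested subpallial progenitor markers were higher in WT members at E17.5 than at E12.5, against the same 21.5% of all genes, and none of the 8 interneuron markers was at 0 over a whole group. The 6 oligodendrocyte precursor markers summed to 0.923 to 1.40 CPM in WT at E12.5 and 11.4 to 41.6 CPM at E17.5, where Pdgfra had a UMI in up to 3.03% of a WT library's members while Sox10, Bcas1 and Gpr17 were at 0. Olig2, the 1 gene of that list high enough to test, was called higher (5.35). The red blood cell genes summed to 204 to 735 CPM in WT at E17.5. How far RNA from outside the cell enters the other values was not tested.

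The exclusion genes removed more cells with age. They took 26.9% ± 5.21 (SD, n = 4) of the cycling Sox2 and Pax6 cells in WT at E12.5 and 74.4% ± 5.86 (SD, n = 4) at E17.5. Over all libraries 28135 cells passed the cycling and Sox2 and Pax6 conditions, of which 7897 had Neurod6 UMIs, 6751 had Eomes, 770 had Gad2 and 499 had Olig1. At the edge of the rule, 3216 members had exactly 2 UMIs of Top2a and Mki67, and 5022 cells just outside it had 1. Cells with 1 such UMI had medians of 27.0 to 65.0 G2M UMIs per library, cells with exactly 2 had 27.5 to 92.0, and all members had 87.0 to 187, so that the edge is a range and not a border between types.

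Cycling radial glia, as the rule selects them, made up a shrinking share of the barcodes. They were 28.0%, 30.6%, 34.2% and 36.9% of barcodes in WT libraries M1, M2, F1 and F2 at E12.5, and 1.60%, 2.33%, 0.863% and 2.40% in the corresponding libraries at E17.5. The groups did not overlap, and the difference was -30.6 percentage points (p = 0.0286, two-sided exact permutation test, the smallest p that 4 against 4 libraries allow). Het libraries went from 24.3%, 25.2%, 14.9% and 28.0% to 1.96%, 2.43%, 1.58% and 2.43%, with means of 23.1% and 2.10% (p = 0.0286, exact permutation test). The main drops lay between E12.5 and E14.5, when the WT mean went from 32.4% to 7.55%, and between E16.0 and E17.5, when it went from 7.36% to 1.80%, each with p = 0.0286 (exact permutation test). Between E14.5 and E16.0 the WT means differed by 0.184 points (7.55% and 7.36%, p = 0.857, exact permutation test). The exclusion genes took 19.7% to 32.1% of the cycling Sox2 and Pax6 cells of a WT library at E12.5. They took 49.1% to 55.6% at E16.0 and 67.9% to 81.6% at E17.5. Before exclusion a WT library held 1963 to 2645 such cells at E12.5, 608 to 761 at E16.0 and 179 to 290 at E17.5. The part of the exclusion in these drops was not tested.

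In WT the cycling share of the radial glia gate was also lower at E17.5 than at E12.5. It was not lower once cells were thinned to a common depth. WT libraries M1, M2, F1 and F2 began at 56.1%, 59.7%, 61.7% and 60.5% on E12.5. The corresponding values were 48.9%, 49.0%, 51.3% and 46.5% on E14.5, 51.4%, 52.5%, 46.8% and 49.5% on E16.0, and 48.6%, 35.4%, 30.6% and 37.3% on E17.5. All WT libraries at E17.5 lay below all those at E12.5, by 21.6 points on average (p = 0.0286, exact permutation test). Het means were 49.1% ± 10.2 and 40.4% ± 3.59 (SD, n = 4 each), a difference of -8.72 points (p = 0.200, exact permutation test). Each cell was then thinned to 3000 UMIs, which left out the shallower barcodes, 0% of them in the WT libraries at E12.5 but 10.5% to 26.1% at E17.5. The WT values of the 4 successive stages were then 30.5% ± 2.15, 32.3% ± 4.51, 37.7% ± 2.14 and 32.8% ± 9.15 (SD, n = 4 each). From E12.5 to E17.5 the WT difference was 2.26 points (p = 0.714, exact permutation test). Het means were 26.5%, 30.1%, 39.5% and 34.6% at the same stages. In both genotypes the mean was highest at E16.0. After thinning, no stages were tested against each other but E17.5 and E12.5 in WT. Thinning changes both the UMIs per cell and which cells remain, and at E17.5 non-cycling cells of the gate were the shallower ones, with medians of 3922 to 5617 UMIs in WT against 6980 to 9427 in members. The part of each was not tested. After thinning the share of all barcodes still went from 10.5% to 1.59% (p = 0.0286, exact permutation test).

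**Figure D1:**
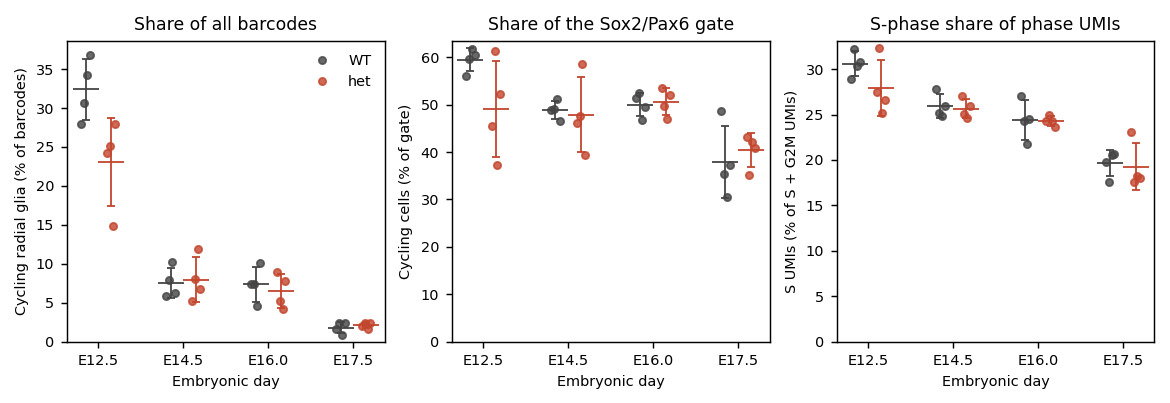
Cycling radial glia as a percentage of all barcodes (left), as a percentage of the radial glia gate (middle), and S-phase UMIs as a percentage of S and G2M UMIs in members (right), by embryonic day. Each point is 1 library (WT dark, het red, n = 4 per group), with the mean as a horizontal line and the SD as a bar, and the WT means on the right go from 30.6% at E12.5 to 19.7% at E17.5.

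Within the cycling cells, S-phase RNA was a smaller part of the cell-cycle RNA at later stages. To measure it, UMIs of 43 genes of DNA replication and 52 genes of G2 and mitosis, which are widely used as phase lists, were summed over the members of each library. Top2a and Mki67 belong to neither sum, but the measure is not independent of the rule. Cells with more UMIs of these 2 genes also held more G2M UMIs, as given above. S-phase UMIs were 28.9%, 32.2%, 30.3% and 30.8% of the phase UMIs in WT M1, M2, F1 and F2 at E12.5. They were 27.8%, 25.1%, 24.8% and 25.9% on E14.5, 27.1%, 24.3%, 21.7% and 24.5% on E16.0, and 19.8%, 17.6%, 20.6% and 20.7% on E17.5. No E17.5 library reached the lowest E12.5 library, and the means of 30.6% and 19.7% differed by 10.9 points (p = 0.0286, exact permutation test). Het libraries went from 27.9% ± 3.11 to 19.2% ± 2.60 (SD, n = 4 each, p = 0.0286, exact permutation test). After thinning to 3000 UMIs the WT means were 26.3% and 18.3%, again without overlap (p = 0.0286, exact permutation test). With a gate of at least 3 UMIs they were 28.8% and 18.4%, so the level of this share depends on the rule. The part of the rule in its change with stage was not tested. Relative to all RNA of the members, S-phase UMIs went from 0.601% to 0.460% in WT, and G2M UMIs from 1.37% to 1.88%. The 2 parts did not move at the same stages. S-phase UMIs were 0.587% to 0.622% over the WT libraries at E12.5, 0.544% to 0.647% at E14.5 and 0.539% to 0.665% at E16.0. At E17.5 they were 0.410% to 0.541%. G2M UMIs were 1.31% to 1.45% at E12.5, 1.60% to 1.79% at E14.5, 1.79% to 1.98% at E16.0 and 1.59% to 2.09% at E17.5. A lower S-phase part was not particular to members. Non-cycling cells of the gate held medians of 42 to 56 S-phase and 35 to 44 G2M UMIs in WT at E12.5. In WT at E17.5 they held 5 to 7 and 11 to 14. How far the change in members is shared with these cells was not tested.

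Gene by gene, most replication genes fell between E12.5 and E17.5, and in WT members many mitosis genes rose. Genes were tested on UMIs summed over the members of each library with edgeR's quasi-likelihood test, with Benjamini-Hochberg adjustment over all 11742 genes tested and a threshold of 0.05. In WT, 2524 genes (21.5% of those tested) were higher at E17.5 and 2552 (21.7%) were lower. Of the 43 S-phase genes 28 fell and 3 rose, with a median log2 fold change of -0.54 against -0.00 for all genes. Of the 52 G2M genes 25 rose and 3 fell, with a median of 0.38. Het members gave 27 lower and 3 higher S-phase genes, and 22 higher and 11 lower G2M genes (median 0.15), against 26.6% of all genes higher and 25.2% lower in het. In cells thinned to 3000 UMIs, where fewer UMIs are left, 15 S-phase genes fell and 1 rose, and 11 G2M genes rose and 3 fell, where 11.9% of all genes rose and 12.9% fell. Without the 3 libraries that stood apart at E17.5, 20 G2M genes rose and 3 fell in WT, where 18.0% of all genes rose and 20.9% fell. In het 13 rose and 11 fell (median 0.10), near the 18.1% and 20.8% of all genes. When cells with UMIs of Dlx1, Dlx2, Dlx5, Gad1, Gsx2, Sox10, Pdgfra or Neurod2 were also removed, 29 S-phase genes fell and 2 rose, and 24 G2M genes rose and 3 fell, where 19.3% of all genes rose and 21.7% fell. With all members, the lists moved at different steps in WT. From E12.5 to E14.5, 19 G2M genes rose and 0 fell, and 3 S-phase genes rose and 4 fell, where 26.6% of all genes changed. No gene of either list passed from E14.5 to E16.0, where 6.47% of all genes changed. From E16.0 to E17.5, 17 S-phase genes and 2 G2M genes fell and 0 rose, where 10.2% changed.

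Among the replication genes, Mcm4, a subunit of the helicase that opens DNA at replication origins, had 101, 119, 112 and 103 CPM in WT at E12.5 and 46.9, 48.3, 48.9 and 25.8 CPM at E17.5. The highest E17.5 library lay below the lowest E12.5 library, with a log2 fold change of -1.36 (SE 0.23, adjusted p = 1.36e-05, edgeR). Chaf1b, which helps to place histones on new DNA, fell by 1.36 on the log2 scale (SE 0.17), and the helicase subunits Mcm5 and Mcm6 by 1.05 and 1.12. The 3 genes of the list that rose were Atad2, a chromatin protein (0.78, SE 0.17), Brip1, a repair helicase (0.76, SE 0.25), and E2f8, a repressor of E2F target genes (0.58, SE 0.18), all as log2 fold changes. Brip1 did not pass without WT F1 (adjusted p = 0.0851, edgeR) or WT F2 at E17.5.

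Among the mitosis genes, Gas2l3, which links actin to microtubules during cytokinesis, had 38.0, 22.9, 33.0 and 27.9 CPM in WT at E12.5 and 80.9, 114, 91.2 and 92.9 CPM at E17.5 (log2 fold change 1.65, SE 0.17, adjusted p = 6.76e-11, edgeR). All E17.5 libraries were above all E12.5 libraries. Ckap2 and Ckap5, which stabilise or extend spindle microtubules, rose by 1.31 (SE 0.14) and 1.24 (SE 0.22) on the log2 scale, the latter by 0.78 without WT M1 at E17.5. The 3 that fell were Lbr, a receptor of the inner nuclear membrane (-0.94, SE 0.22), Anp32e, a histone chaperone (-0.47, SE 0.11), and Rangap1, which works in nuclear transport (-0.38, SE 0.14), whose call was lost without WT F2 at E17.5 (-0.28). The gate genes themselves are given as a description only: Top2a stood at 462, 402, 422 and 415 CPM in WT at E12.5 and 844, 562, 625 and 588 CPM at E17.5, and Mki67 at 111, 91.6, 103 and 96.2 against 506, 217, 208 and 230 CPM, with the highest Mki67 values at E17.5 in the 3 libraries that stood apart.

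Because the lists moved in opposite directions, the promoters of their genes are shown for the letters that are associated with each phase. E2F factors, which switch on replication genes, recognise TTTCCCGC, TTTCGCGC, TTTGCCGC or TTTGGCGC, and the CHR element TTTGAA is bound by the complexes that time mitosis genes. Both strands were searched in windows of 300 bases, 250 before and 50 after the transcription start, taken from RefSeq for build GRCm38.p6. Symbols matched for 31 of 43 S-phase and 45 of 52 G2M genes. An E2F match was present in 12 of 31 S-phase genes (38.7%), 3 of 45 G2M genes (6.67%) and 2.61% of all 27025 genes with a window (2.26% of all 32851 windows). A CHR match was present in 31 of 45 G2M genes (68.9%), 6 of 31 S-phase genes (19.4%) and 20.2% of all genes (17.9% of windows). CCAAT, which was also searched, was frequent in both lists: 22 of 31 S-phase genes (71.0%) and 34 of 45 G2M genes (75.6%) held it, against 41.1% of all genes (37.4% of windows). Within the lists, E2F matches were in 8 of 20 S-phase genes that fell, 4 of 9 that did not pass the test and 0 of 2 that rose. CHR matches were in 13 of 21 G2M genes that rose, 15 of 21 that did not pass and 3 of 3 that fell. A match is a description of letters and not a measured site. The genes printed below were taken from those that held a match. The windows below are from 2 genes that fell and 2 that rose, 5′ to 3′ on the gene's strand, with E2F letters in capitals in Mcm6 and Mcm5, where matches on opposite strands overlap, and CHR letters in capitals in Ckap2 and Ckap5, where TTCAAA is TTTGAA on the other strand. Mcm6 lies at chr1:128359656-128359955 on the minus strand, Mcm5 at chr8:75109259-75109558 on the plus strand, Ckap2 at chr8:22185770-22186069 on the minus strand and Ckap5 at chr2:91526512-91526811 on the plus strand.
Mcm6: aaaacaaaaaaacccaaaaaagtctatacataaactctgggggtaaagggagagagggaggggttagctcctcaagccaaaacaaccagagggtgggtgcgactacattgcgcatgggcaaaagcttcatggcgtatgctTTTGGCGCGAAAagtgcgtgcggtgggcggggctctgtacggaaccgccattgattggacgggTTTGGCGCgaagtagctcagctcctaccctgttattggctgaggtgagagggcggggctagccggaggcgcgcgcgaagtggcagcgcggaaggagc
Mcm5: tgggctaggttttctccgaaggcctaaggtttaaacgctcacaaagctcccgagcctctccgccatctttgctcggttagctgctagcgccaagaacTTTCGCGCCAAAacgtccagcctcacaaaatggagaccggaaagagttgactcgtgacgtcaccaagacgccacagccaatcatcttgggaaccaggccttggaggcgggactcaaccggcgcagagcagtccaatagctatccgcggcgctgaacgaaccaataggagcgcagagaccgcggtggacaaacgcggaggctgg
Ckap2: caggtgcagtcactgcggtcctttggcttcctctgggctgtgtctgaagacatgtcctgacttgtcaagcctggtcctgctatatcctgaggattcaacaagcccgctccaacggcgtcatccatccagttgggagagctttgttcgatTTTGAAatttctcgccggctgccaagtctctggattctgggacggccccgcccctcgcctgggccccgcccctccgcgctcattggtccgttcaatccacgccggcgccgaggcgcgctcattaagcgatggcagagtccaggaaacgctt
Ckap5: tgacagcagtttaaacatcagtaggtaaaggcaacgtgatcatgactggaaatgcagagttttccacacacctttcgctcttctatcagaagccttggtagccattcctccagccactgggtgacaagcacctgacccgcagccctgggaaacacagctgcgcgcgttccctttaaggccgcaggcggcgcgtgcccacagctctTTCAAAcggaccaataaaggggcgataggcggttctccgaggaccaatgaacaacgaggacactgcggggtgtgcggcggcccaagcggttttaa

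**Figure D2:**
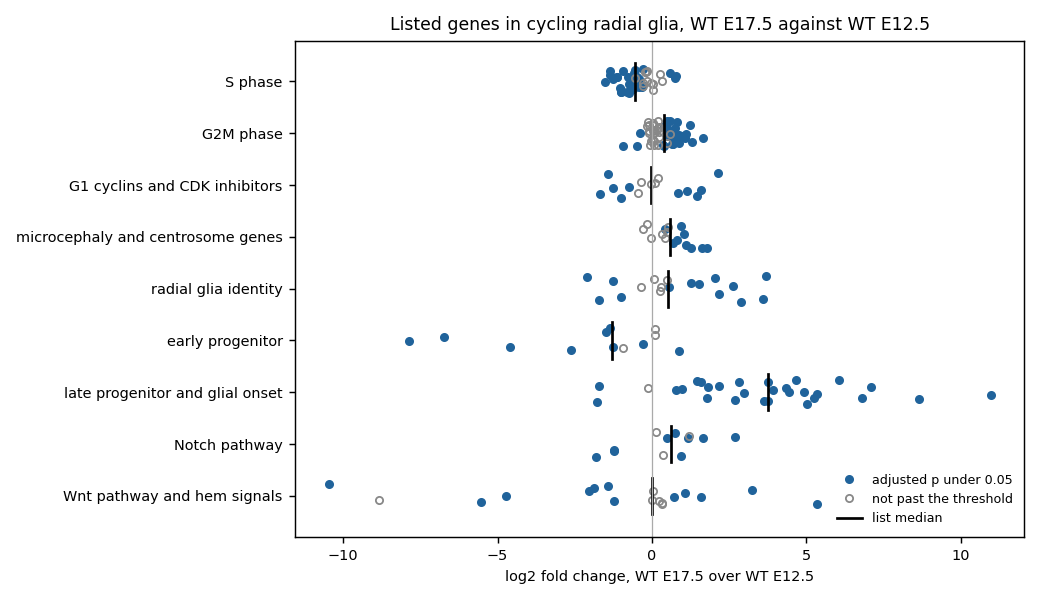
Log2 fold change of each listed gene in cycling radial glia, WT E17.5 over WT E12.5, with 1 point per gene and 1 row per gene list. Filled points passed an adjusted p of 0.05 (edgeR), open points did not, and the black bar is the list median, which lies at -0.54 for S-phase and 0.38 for G2M genes.

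Member cells that leaned to S phase could be set against those that leaned to G2 and M. A cell was called S-leaning when it held more S than G2M UMIs, which gave 3821 S-leaning and 13277 G2M-leaning cells. Between 7.46% and 28.6% of a library's members lay within 1.5 times of equal counts, so the classes are ranges of a score and not cell types. S-leaning cells were 25.1% ± 2.48 of WT members at the first stage and 22.9% ± 2.86, 21.3% ± 2.83 and 12.8% ± 1.64 at the following ones (SD, n = 4 each). Since the lists define the classes, levels are given without a test, for the 28 libraries with at least 10 cells of each class, as mean log2 ratios of S-leaning over G2M-leaning CPM with a pseudocount of 5 CPM.

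Outside the phase lists, 141 of 3313 genes of at least 50 CPM were higher in S-leaning cells in every 1 of these 28 libraries, and 192 were higher in G2M-leaning cells in every 1. Among the highest S ratios were those of genes that license or copy DNA: Cdt1, which loads the helicase at origins (2.18), Pola2, a subunit of DNA polymerase alpha (1.58), Lig1, which joins replicated fragments (1.56), and Mcm3 (1.52). Tcf19 (1.75), Pkmyt1, a kinase that restrains CDK1 (1.31), and Shmt1, of folate metabolism (1.27), were also among the highest. The most G2M-leaning genes were Ccnb1, the mitotic cyclin (-3.50), the tubulin Tuba1c (-3.36), Fam83d, a spindle protein (-2.94), Arl6ip1 (-2.78), Plk1, a mitotic kinase (-2.64), Kpna2, a nuclear import factor (-2.62), Cdkn3 (-2.57) and Knstrn, a kinetochore protein (-2.46). By stage, the ratio of Cdt1 was 1.23 at E12.5 and 2.98 at E17.5, and that of Knstrn -1.75 and -3.23. The values for the latest stage come from 4 of 8 libraries, which held 10 to 11 S-leaning cells each.

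Several other listed genes of radial glia differed in level between the phases in the same libraries. The G1 to S regulators Ccne1 (1.72), Cdk2 (0.76) and Cdk4 (0.22) were higher in S-leaning cells in 28 of 28 libraries. The CDK inhibitors Cdkn2d (-1.13) and Cdkn2c (-0.52), and the centrosome genes Aspm (-2.32) and Nde1 (-1.62), were lower in S-leaning cells in all 28. So were the progenitor transcription factors Sox9 (-0.40) and Dmrta2 (-0.57). The Notch target Hes5 was higher in S-leaning cells in 23 of 28 libraries (0.28), while Hes1, a related target, was higher in 11 (-0.13). Pax6 (-0.29) and Sox2 (-0.26) belong to the gate and stood lower in S-leaning cells in 28 and 27 libraries. S-leaning cells had medians of 5218 to 11979 UMIs and G2M-leaning cells 6564 to 13711, and the part of depth in these ratios was not tested.

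**Figure D3:**
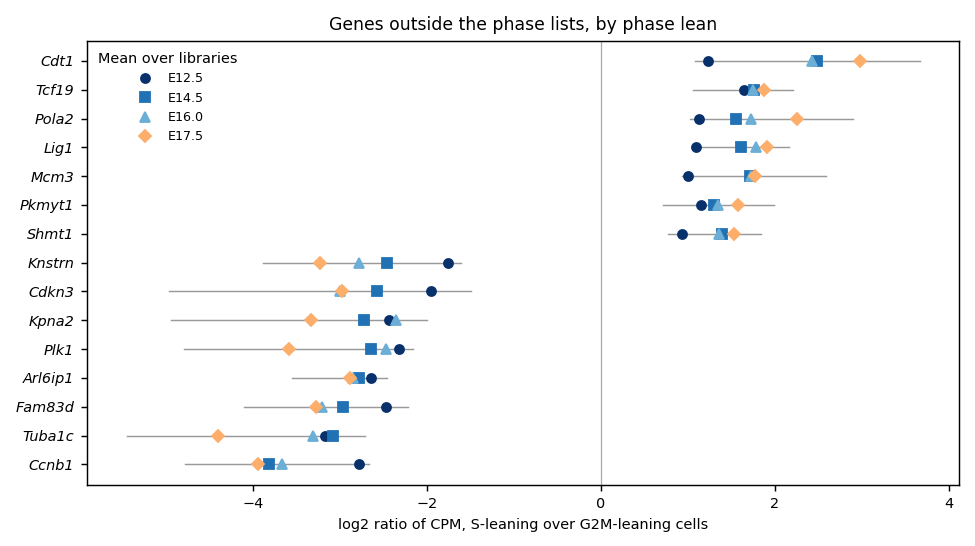
Mean log2 ratio of CPM in S-leaning over G2M-leaning members for 15 genes outside the phase lists with large mean ratios on 1 side in every library. Symbols are stage means, grey lines span the lowest to the highest of 28 libraries, and Cdt1 (2.18 on average) and Ccnb1 (-3.50) lie at the ends.

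Members were set against the non-cycling cells of the same gate. Median UMIs per member cell were 1.32 to 1.96 times those of non-cycling cells in the same library, a ratio that the rule itself favours, since deeper cells reach 2 UMIs of Top2a and Mki67 more easily. The ratios below, as mean log2 ratios of member over non-cycling CPM over 32 libraries, are a description, since the rule divides the cells by 2 genes of this program. Aspm, which holds the spindle poles of dividing radial glia together (2.36), Cit, a kinase of cytokinesis (2.05), Cdkn2d (2.03), Cdkn2c (1.85), Plk4, which drives centriole duplication (1.57), and Nde1 (1.32) were higher in members in 32 of 32 libraries. Hmga2, a chromatin protein of young stem cells, was also higher in 32 of 32 (0.66). Lower in members were Neurog2, which commits progenitors to neurons (higher in 3 libraries of 32), Gadd45g (-1.03, higher in 7), Tubb3, a neuronal tubulin (-0.95, higher in 2), and Btg2, a marker of neurogenic divisions (-0.42, higher in 1). Hes5 was lower in members in 31 of 32 libraries (-0.54). Some replication genes were lower in members too, such as Ung, which removes uracil from DNA (-1.13, higher in 3), and Mcm4 (-0.40, higher in 5). The non-cycling cells are named for Top2a and Mki67 alone. In WT at E12.5 they held medians of 42 to 56 S-phase UMIs, against 66 to 79 in members. Their medians of all UMIs were 7319 to 8973, against 11513 to 12874. In WT at E17.5 they held 5 to 7 S-phase UMIs, against 24 to 38. Whether they include cells in S phase, and whether their make-up differs by stage, was not tested.

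Regulators of the G1 phase changed in both directions between E12.5 and E17.5. Of 15 genes tested 5 rose and 5 fell, in both cases against about 21.5% of all genes per direction. Cdkn2c, an inhibitor of CDK4 and CDK6, stood at 58.2, 56.2, 56.6 and 44.1 CPM in WT at E12.5 and at 171, 333, 235 and 205 CPM at E17.5. Every E17.5 library exceeded every E12.5 library (log2 fold change 2.15, SE 0.20, adjusted p = 1.43e-10, edgeR). The CDK inhibitors Cdkn2d (1.46, SE 0.15) and Cdkn1b (1.13) rose as well, and so did Cdk6, the kinase that Cdkn2c inhibits, from 62.7, 43.0, 55.7 and 52.3 to 158, 137, 156 and 194 CPM (1.59, SE 0.18). Ccnd1, the cyclin that drives G1 exit, fell from 188, 221, 208 and 199 CPM to 90.6, 60.7, 124 and 84.3 CPM (log2 fold change -1.25, SE 0.16). Ccne1 (-1.69, SE 0.23), Cdkn1c (-1.43, SE 0.33), and Cdk4 (-0.76, SE 0.13) fell, Ccnd3 fell from 106 to 51.4 CPM, whereas Ccnd2 stood at 1132 and 1115 CPM (-0.02, SE 0.13). The named risers and fallers had the same direction in het members, with log2 fold changes of 1.92 for Cdkn2c, 1.06 for Cdk6 and -1.40 for Ccnd1. By the phase ratios above, Cdkn2c and Cdkn2d were lower in S-leaning cells, and Ccne1 and Cdk4 higher. S-leaning cells were 23.1% to 28.4% of a WT library's members at E12.5 and 11.6% to 15.2% at E17.5. The part of this change in phase mix was not tested.

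Centrosome and microcephaly genes, whose loss in people gives a small brain, rose in 9 of 16 cases, against 21.5% of all genes, and fell in none. Aspm stood at 30.5, 23.3, 28.6 and 26.5 CPM in WT at E12.5 and at 160, 71.8, 45.6 and 79.1 CPM at E17.5, without overlap (log2 fold change 1.77, SE 0.21, adjusted p = 1.60e-08, edgeR). The highest value came from WT M1, 1 of the libraries that stood apart. Aspm was also lower in S-leaning cells, whose share of members fell over these stages, and the part of this in its rise was not tested. Kif14, a kinesin of cytokinesis (1.63, SE 0.29), Cep135, a centriole protein (1.27, SE 0.36), and Cdk5rap2, which anchors microtubule nucleation at the centrosome (1.09, SE 0.19), rose too, although Cep135 did not pass without WT M1 (0.85, adjusted p = 0.114, edgeR). In het members 12 of 16 rose, against 26.6% of all genes. Without the 3 libraries that stood apart the count was 6 of 16 in WT, against 18.0% of all genes, and 6 of 16 in het, against 18.1%. After thinning it was 5 of 13 in WT, against 11.9%.

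Genes of young progenitors went down over the stages: of 12 tested genes of this list 8 fell and 1 rose (21.7% and 21.5% of all genes), with a median log2 fold change of -1.30, while Lin28a, Trim71 and Nr6a1 were too low to test. Hmga2 had 292, 356, 336 and 376 CPM in WT at E12.5, 66.8 to 83.4 CPM at E14.5, 40.7 to 55.1 CPM at E16.0, and 9.70, 9.90, 22.8 and 18.9 CPM at E17.5. No 2 stages overlapped, and the log2 fold change from E12.5 to E17.5 was -4.60 (SE 0.20, adjusted p = 4.06e-22, edgeR). Crabp2, which carries retinoic acid, went from 139 CPM through 14.1 and 1.81 to 1.94 CPM, the last of these from 3 UMIs. Lin28b, which blocks maturation of let-7 microRNAs, stood at 5.06 CPM at E12.5 and at 0 UMIs at E17.5, at least 3.53-fold lower with a floor of 3 UMIs over the group. The RNA-binding genes Igf2bp2 (-2.61, SE 0.21) and Igf2bp1 fell, and Epha5, an axon guidance receptor, was the 1 gene that rose (0.87, SE 0.14). Outside the list, Dmrt3, a transcription factor of the early cortex (-4.92, SE 0.58), Socs2, which dampens cytokine signals (-3.68, SE 0.26), Flrt3, an adhesion protein (-3.58, SE 0.34), Klf10 (-2.87, SE 0.32), Isyna1, which makes inositol (-2.77, SE 0.22), and Tgif1 (-2.73, SE 0.32) went down step by step. The embryonic globin Hba-x went from 127 CPM to 0 UMIs, at least 79.6-fold lower, and is 1 of the red blood cell genes above.

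Genes of late progenitors and of the glial onset went up in their place. Of 29 tested genes of this list 26 rose and 2 fell (21.5% and 21.7% of all genes), with a median log2 fold change of 3.76, and S100b was too low to test. Tnc, a matrix protein of late radial glia, had 0.159, 0, 0.130 and 0.112 CPM in WT at E12.5 (9 UMIs in all), 2.10, 5.48, 20.5 and 8.13 CPM at E14.5, 70.1, 79.3, 70.4 and 72.3 CPM at E16.0, and 304, 238, 309 and 198 CPM at E17.5. Each stage lay wholly above the one before. Aldh1l1, a folate enzyme of astrocytes, went from 0.222 through 9.88 and 46.5 to 101 CPM, and the matrix protein Bcan from 0.302 to 33.3 CPM by E14.5 and 45.6 CPM by E17.5. Zbtb20, a factor of late progenitors (3.77, SE 0.19), the receptor phosphatase Ptprz1 (3.93, SE 0.19), the metallothionein Mt3 (4.34, SE 0.40) and Apoe rose as well. Nfix, Nfib and Nfia, the factors that open astrocyte genes, rose by 1.81 (SE 0.12), 0.97 (SE 0.12) and 0.78 (SE 0.24) on the log2 scale. Gfap and Aqp4, genes of mature astrocytes, passed the test but stayed at 4.50 ± 6.15 and 6.96 ± 4.18 CPM at E17.5 (SD, n = 4). The 2 that fell were Gja1, a gap junction protein (-1.78, SE 0.16), and Id4, an inhibitor of differentiation factors (-1.71, SE 0.20). After thinning 20 of 25 tested genes of the list rose and 3 fell, where 11.9% and 12.9% of all genes did. With the other-lineage cells removed 26 rose and 2 fell, where 19.3% and 21.7% did. Olig2, which is in this list and is also a subpallial gene, went from 1.62 to 27.2 CPM between E16.0 and E17.5, the stage at which interneuron markers were high. With the cells that held UMIs of the 8 other-lineage genes removed, its log2 fold change from E12.5 to E17.5 was 5.96 in WT and 6.36 in het, against 5.35 and 5.44 with all members, and it passed in both (edgeR).

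**Figure D4:**
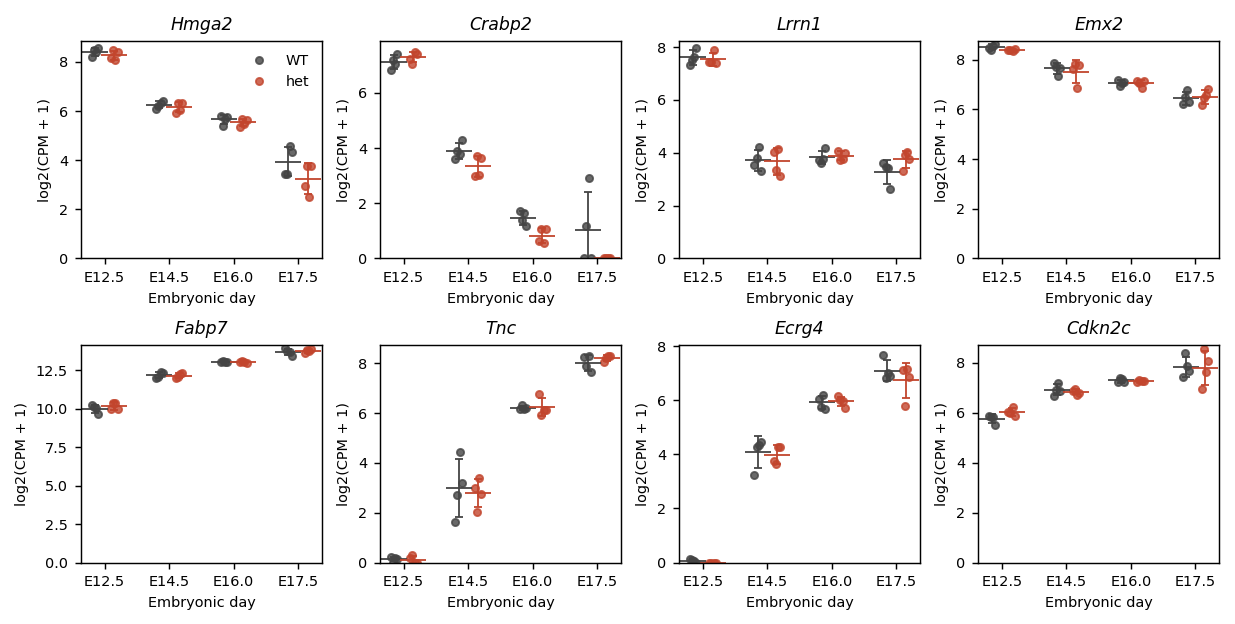
Levels of 8 genes in cycling radial glia by embryonic day, as log2(CPM + 1). Each point is 1 library (WT dark, het red, n = 4 per group), lines and bars are the mean and SD, and Hmga2, Crabp2, Lrrn1 and Emx2 go down while Fabp7, Tnc, Ecrg4 and Cdkn2c go up.

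Step by step in WT, 3128 genes (26.6% of those tested) changed between E12.5 and E14.5, 760 (6.47%) between E14.5 and E16.0, and 1192 (10.2%) between E16.0 and E17.5. The steps differ in length and in depth, and the last compares the smallest groups, so these counts do not rank the steps. Lrrn1, a membrane protein of early neural tissue, dropped at the first step, from 198 ± 39.2 to 12.5 ± 3.74 CPM (SD, n = 4 each, log2 fold change -3.99, SE 0.18), and remained at 13.3 and 9.04 CPM afterwards. At the same step Ecrg4, a secreted peptide gene, rose from 4 UMIs in all (0.0527 CPM) to 16.9 CPM, and Ccdc80, a matrix protein, from 1.73 to 41.8 CPM. At the second step the immediate early gene Ier2 (-1.49, SE 0.33) and the LIM factor Lmo1 (-1.33, SE 0.27) fell and Apoe (1.89, SE 0.26) and Pmp22, a membrane protein of glia (2.06, SE 0.29), rose. At the last step the metallothionein Mt2 rose from 184 to 610 CPM and Igfbpl1 from 74.3 to 209 CPM, while Asns, which makes asparagine, fell from 33.7 to 5.18 CPM, a call lost without WT M1 at E17.5 (adjusted p = 0.0565, edgeR). For that step edgeR called 553 higher and 639 lower genes and DESeq2 802 and 569, so its balance of directions depends on the tool. Without WT M2 at E17.5, edgeR called 705.

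Het members, in libraries that the WT contrast does not use, changed in many of the same genes. Their litters are those of the WT embryos, so the 2 contrasts are not independent. From E12.5 to E17.5, 6079 genes (51.8%) changed in het members, 3119 higher (26.6%) and 2960 lower (25.2%). Of these, 4129 were called in the same direction in WT, 81.3% of the WT and 67.9% of the het calls, and 2 were called in opposite directions. The log2 fold changes of Hmga2 were -4.60 in WT and -5.10 in het, those of Tnc 10.99 and 11.1, those of Fabp7 3.70 and 3.56 and those of Emx2 -2.10 and -1.88.

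Genes of radial glial identity moved in both directions. Of 18 genes 9 rose and 4 fell, against 21.5% and 21.7% of all genes, so that the share that fell is near that of all genes. Fabp7, the fatty acid binding protein of radial glia, had 1200, 1080, 1053 and 794 CPM in WT at E12.5 and 15544, 13874, 13111 and 11194 CPM at E17.5, without overlap (log2 fold change 3.70, SE 0.13, adjusted p = 8.34e-25, edgeR). Mfge8, a secreted protein of late neural stem cells (3.59, SE 0.14), Ddah1 (2.89, SE 0.16), the glutamate transporter Slc1a3 (2.62, SE 0.16) and the receptor Notch1 (1.52, SE 0.15) rose. Emx2, which patterns the caudal cortex, fell from 356, 341, 375 and 400 CPM to 74.4, 89.1, 111 and 77.4 CPM (-2.10, SE 0.16), Lhx2, which specifies the cortex, from 890 to 271 CPM (-1.72, SE 0.13), and Hes1 from 658 to 278 CPM (-1.26, SE 0.29). Vim (0.48, SE 0.24), Nes (-0.36, SE 0.27), Sox9 (0.29, SE 0.12) and Hes5 (0.27, SE 0.14) did not pass the test.

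In the Notch pathway, by which radial glia restrain each other from differentiating, 6 of 12 tested genes rose and 3 fell in WT, where 21.5% and 21.7% of all genes did, and Heyl was too low to test. Het members gave 8 and 3, against 26.6% and 25.2% of all genes. Among ligands Dll1 fell, from 21.2, 21.4, 24.8 and 24.1 CPM to 3.23, 7.43, 6.51 and 8.60 CPM (-1.82, SE 0.31), while Dll3, which acts inside the cell, rose from 1.89 to 13.5 CPM and Jag1 from 9.18 to 29.5 CPM. The glycosyltransferases that tune the receptors went apart, Lfng up (1.17, SE 0.17) and Mfng down (-1.24, SE 0.24), and the target Hey1 fell (-1.23, SE 0.14). In the Wnt list 5 of 18 tested genes rose and 7 fell in WT, the former near the 21.5% of all genes, and in het members 7 rose and 5 fell, the latter near the 25.2% of all genes. Without the 3 libraries that stood apart 3 rose and 3 fell in het, near the 18.1% and 20.8% of all genes. In WT 5 then rose and 6 fell, where 18.0% and 20.9% of all genes did. Lef1, a transcription factor of the pathway, stood at 51.1, 52.3, 58.4 and 69.7 CPM and then at 1.62, 1.24, 0 and 5.16 CPM (-4.73, SE 0.40), Wls, which exports Wnt proteins, fell (-2.03, SE 0.30), and Wnt7b fell (-1.22, SE 0.42) while Wnt7a rose (1.08, SE 0.24). Wnt8b and Rspo3, signals of the medial hem, went from 17.9, 19.1, 22.3 and 64.2 CPM to 0 UMIs (at least 23.3-fold lower) and from 16.8, 8.90, 11.7 and 46.9 CPM to 1 UMI. The E12.5 libraries differed widely among themselves, and WT F2 was the highest for both. Dkk3 (3.23, SE 0.29) and the receptors Fzd5 and Lrp5 rose, Fzd5 from 8 UMIs to 11 UMIs in far fewer cells.

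Among 12 tested genes of the p53 response 3 rose and 2 fell in WT, near the 21.5% and 21.7% of all genes. Of the risers, Zmat3 did not pass in 10 of 32 fits that left out 1 library, and Phlda3 (0.73, SE 0.27) was at 0.11 without WT F2 at E17.5. In het members 0 rose and 3 fell, the latter near the 25.2% of all genes, and after thinning 0 of 7 tested genes passed in WT (edgeR), where 11.9% of all genes rose and 12.9% fell. The WT genes that fell were Trp53 itself (-0.74, SE 0.12) and Bbc3, a cell death gene (-1.85, SE 0.46, and -3.20 without WT F2 at E17.5). Of the 9 CHD genes 3 rose in WT: Chd9 (1.15, SE 0.37), Chd6 (0.89, SE 0.24) and Chd8 (0.43, SE 0.17, adjusted p = 0.0430, edgeR), against 21.5% of all genes, and 6 of 9 rose in het, against 26.6%. Without WT M1 at E17.5 the first 2 were at 0.25 and 0.30 and did not pass, and Chd8 did not pass in 26 of 32 fits that left out 1 library (adjusted p up to 0.162). Without the 3 libraries that stood apart, none of the 9 rose and 1 fell in WT, where 18.0% and 20.9% of all genes did. In het 2 of the 9 then rose and 0 fell (median log2 fold change 0.04), where 18.1% and 20.8% of all genes did.

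To compare cells with 1 and 2 intact Chd8 alleles, the targeted gene was read first. Chd8 lies at chr14:52198151-52257780 on the minus strand of GRCm38, where Snord8 and Gm26590 overlap it, and its 3′ UMIs need not cover the mutated part. Its levels in WT members M1, M2, F1 and F2 were 47.9, 44.9, 44.0 and 44.6 CPM at E12.5. They were 28.0, 33.2, 44.6 and 36.4 CPM by E14.5, 26.7, 33.7, 32.9 and 42.2 CPM by E16.0, and 66.3, 59.4, 61.9 and 56.7 CPM by E17.5. In het members they were 36.7, 37.3, 21.6 and 38.3 CPM, then 30.0, 34.4, 31.3 and 32.8, then 30.0, 24.3, 33.4 and 26.1, and then 39.9, 44.0, 32.3 and 24.9. Het lay wholly below WT at E12.5 and at E17.5, the groups overlapped at E14.5 and E16.0, and het was lower in 12 of 16 pairs. The log2 fold change averaged over stages was -0.40 (SE 0.09), with an adjusted p of 0.0530 in edgeR, 0.0239 with the pair as a block and 0.00929 in DESeq2. In edgeR it also passed with no filter on low counts (0.00311) and a gate of 3 UMIs (0.0369). It did not pass with doublets removed (0.0786), other-lineage genes at 0 (0.141) or thinning (0.942). Nor did it pass without all E12.5 (-0.40, 0.466) or all E17.5 libraries (-0.27, 0.239), alternatives chosen after seeing the data. At single stages it was -0.40, -0.14, -0.27 and -0.79, none of which passed. At E12.5 it passed without het M2 (-0.45, adjusted p = 0.0253, edgeR). At E14.5 it was -0.24 without WT M1 and -0.015 without WT F1, and at E16.0 it was -0.14 without WT F2.

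Neither the share of cycling radial glia nor their phase balance passed 0.05 in the main test of genotype. That test permutes libraries within stages and does not use the pairs. Averaged over stages, members were 9.91% of barcodes in het and 12.3% in WT libraries, a difference of -2.38 points (p = 0.0603, permutation test within stages, het higher in 8 of 16 pairs). The difference was largest at E12.5, where het was lower in all 4 pairs and the means were 23.1% and 32.4% (p = 0.0571 and 0.229 adjusted over the 4 stages, exact permutation test), the stage of unequal depth. After thinning to 3000 UMIs the averaged difference was -0.170 points (p = 0.717, permutation test). It passed 0.05 with a gate of at least 3 UMIs (-2.66 points, p = 0.0333, permutation test), and without any 1 of WT M1 or het F1 at E14.5, WT F1 or het M1 at E16.0, or WT F1 at E17.5 (p from 0.0216 to 0.0492, permutation test). The cycling share of the gate was 47.0% in het and 49.1% in WT (p = 0.333, permutation test, het higher in 7 of 16 pairs). The S-phase share was 24.3% and 25.1% (p = 0.197, permutation test, het higher in 6 of 16 pairs).

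Averaged over the 4 stages, 6 of 11742 genes (0.0511%) differed between het and WT members, and all are named because they are few, so Crlf2 and Zcwpw1 fall outside the rule for named genes and were added after their values were seen. Crlf2, Zcwpw1 and Gsta4 also differ in earlier results of these libraries, so their calls here are not independent of those. Without adjustment 839 genes had p under 0.05. Blocking on the pair gave 18 genes and DESeq2 gave 18, with all 6 in each.

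Crlf2, a subunit of the receptor for the cytokine TSLP, had 6.58, 7.24, 7.61 and 5.94 CPM in WT and 11.1, 12.8, 13.8 and 10.6 CPM in het at E12.5. At E14.5 it had 12.2, 9.43, 17.1 and 18.4 against 21.9, 17.1, 21.6 and 22.1, at E16.0 13.8, 13.8, 19.0 and 15.7 against 25.4, 27.5, 26.3 and 25.1, and at E17.5 6.47, 21.0, 13.0 and 17.2 against 28.8, 29.8, 24.6 and 21.4. Het was higher in 16 of 16 pairs, and the groups overlapped at E14.5 alone (log2 fold change 0.72, SE 0.10, adjusted p = 0.000117, edgeR). Zcwpw1, a reader of histone marks at meiotic recombination sites, was also higher in 16 of 16 pairs, with 6.42, 6.75, 6.10 and 7.40 CPM in WT and 11.9, 12.1, 14.6 and 8.51 CPM in het at E12.5 (0.67, SE 0.10, adjusted p = 0.000183, edgeR). It overlaps Pilra on the other strand. Gsta4, a glutathione transferase that clears lipid peroxidation products, had 53.1, 57.5, 56.9 and 67.7 CPM in WT and 43.1, 39.5, 42.7 and 43.7 CPM in het at E12.5, and 21.0, 26.0, 16.3 and 17.2 against 6.64, 12.6, 6.15 and 3.56 CPM at E17.5. It was lower in het in 15 of 16 pairs (-0.77, SE 0.10, adjusted p = 2.69e-05, edgeR), and the groups did not overlap at these stages. Members of the het libraries at E17.5 held 418504 to 613568 UMIs per library, so their Gsta4 values rest on few UMIs. Without all E17.5 libraries, an alternative chosen after seeing the data, the log2 fold change was smaller (-0.52, adjusted p = 0.000244, edgeR).

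The other 3 genes had smaller differences. Anapc15, a subunit of the anaphase-promoting complex that ends mitosis, stood at 92.0, 104, 97.0 and 99.6 CPM in WT and 125, 119, 136 and 144 CPM in het at E12.5, with het above WT in 15 of 16 pairs (0.32, SE 0.06, adjusted p = 0.0192, edgeR). It overlaps Folr1 and Tomt. Krt10, a keratin, stood at 61.3, 61.1, 59.1 and 61.0 against 99.3, 75.2, 123 and 101 CPM at E12.5 and was higher in 15 of 16 pairs (0.39, SE 0.07, adjusted p = 0.0128, edgeR). Stmn4, a tubulin-binding protein of neurons, stood at 82.7, 76.9, 90.8 and 72.6 against 167, 120, 197 and 154 CPM at E12.5 and was higher in 14 of 16 pairs (0.48, SE 0.10, adjusted p = 0.0254, edgeR). Stmn4 lies at chr14:66344296-66361680, on the same chromosome as Chd8, and the part of this in its difference was not tested. For all 3 the groups did not overlap at E12.5. When all E12.5 libraries were left out, an alternative chosen after seeing the data, Crlf2 (adjusted p = 0.0497), Zcwpw1 (0.0497) and Gsta4 (0.00367) passed in edgeR and Anapc15 (0.606), Krt10 (0.757) and Stmn4 (0.900) did not, with log2 fold changes of 0.28, 0.28 and 0.31. When the cells with UMIs of the 8 other-lineage genes were removed, Anapc15 (0.225) and Stmn4 (0.125) did not pass, at log2 fold changes of 0.27 and 0.44. With 1 library left out, Crlf2, Zcwpw1 and Gsta4 passed in 32 of 32 fits. Krt10 failed without het M2 at E17.5 (adjusted p = 0.0533, edgeR), Anapc15 in 4 fits (up to 0.0733; WT F2 and het F2 at E12.5, WT M1 and het M2 at E17.5) and Stmn4 in 8 (up to 0.128; WT F2 at E12.5, WT M2 and F2 at E14.5, het F2 at E16.0, WT M1 and M2 and het M2 and F2 at E17.5). Anapc15 also failed without the 3 libraries that stood apart at E17.5 (0.0686) and with a gate of 3 UMIs (0.0579), and Stmn4 failed with doublets removed (0.0515). After thinning none of the 6 passed (adjusted p from 0.725 to 0.953). The log2 fold changes were then 0.72 for Zcwpw1, 0.37 for Anapc15 and 0.43 for Stmn4, within 1.5 times of those above, and 0.41 for Crlf2, -0.42 for Gsta4 and 0.20 for Krt10, smaller by more than that.

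**Figure D5:**
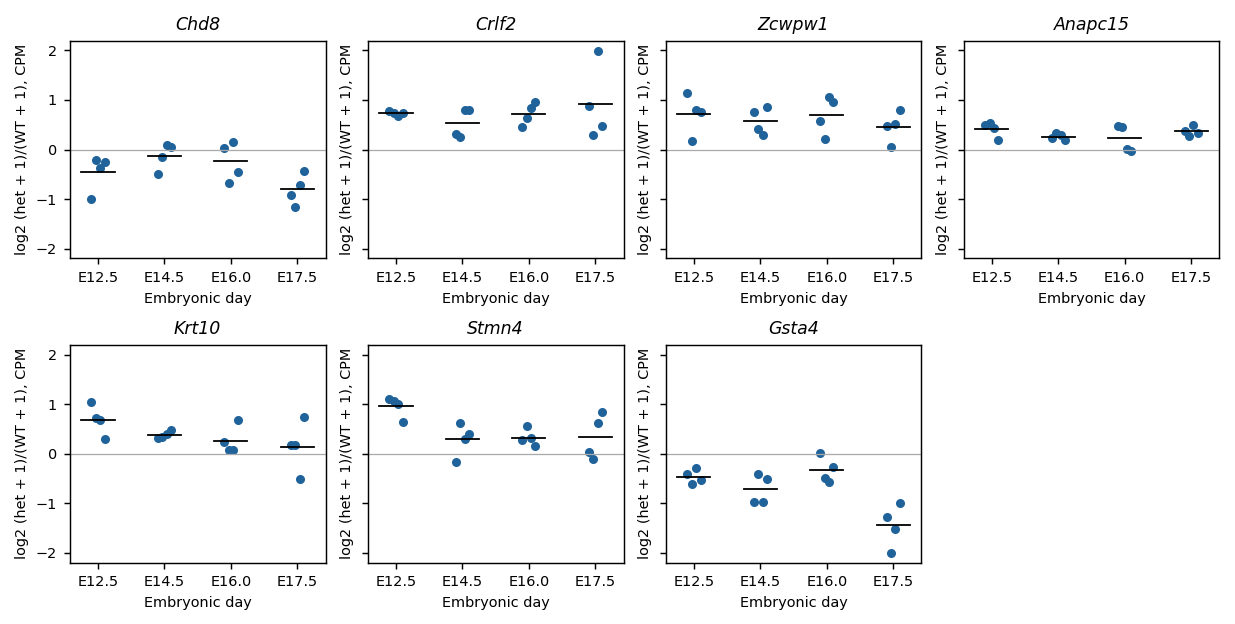
Log2 ratio of het over WT level, (CPM + 1) over (CPM + 1), in cycling radial glia of each litter- and sex-matched pair, by embryonic day, for Chd8 and the 6 genes called on average over stages. Each point is 1 pair and each bar the mean of 4 pairs, and Crlf2 and Zcwpw1 lie above 0 in 16 of 16 pairs.

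At E12.5 alone, 196 genes (1.67%) differed, 102 higher and 94 lower in het, and this count differed widely between the alternatives. DESeq2 called 761 (520 higher and 241 lower), blocking on the pair 1795 (956 higher and 839 lower), the E12.5 libraries alone 0 with 2838 at an unadjusted p under 0.05, and thinned cells 3. Without het M2, the 1 het library as deep as WT, the count was 1628. Without WT M1, WT F1, WT F2, het M1, het F1 or het F2 it was 16, 15, 24, 20, 19 and 85. The values of the named genes below stand beside the depth difference of 3 of the 4 het libraries, whose part in them was not tested.

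Among the larger differences at E12.5, the nuclear factor I genes Nfix and Nfic, which promote maturation of progenitors, were lower in het. Nfix had 90.9, 68.2, 70.9 and 79.6 CPM in WT and 44.9, 52.8, 40.0 and 51.6 CPM in het, without overlap (log2 fold change -0.70, SE 0.12, adjusted p = 0.00123, edgeR). Nfic was at 10.9 and 6.18 CPM (-0.76, SE 0.15), but after thinning its log2 fold change was 0.056. Igdcc4, Tenm4 and Slc25a27 were lower by 0.78, 0.77 and 0.71 on the log2 scale. Higher in het were Stmn4 (0.97, SE 0.14), Gm3550 (0.87), Ccdc167 (0.81), Tnfaip6, a matrix-binding protein (0.77), and Trappc2, of vesicle transport (0.74). Calls among list members stand against the 1.67% of all genes called at E12.5 in either direction. The lists are short, so neither a few calls nor none is read as a result about them. Hmgb2 (0.57, SE 0.15) and Nusap1 (0.51, SE 0.12, and 0.31 without het F1) were higher among 52 G2M genes. Rgcc was higher (0.61, SE 0.12) and Lhx2 lower (-0.42, SE 0.12) among 18 identity genes, and Igf2bp1 (-0.61, SE 0.13) was lower among 12 early genes. Wls (-0.69, SE 0.13) and Rspo3 (-1.72, SE 0.43) were lower in the Wnt list. Without WT F2 Rspo3 was at -0.95, and its call was lost in 19 of 32 fits that left out 1 library. The 6 hem and choroid plexus markers, 1 of which is Rspo3, summed to 8.66 to 52.6 CPM in WT and 4.53 to 7.93 CPM in het at E12.5, and their part in these differences was not tested. Of 9 CHD genes Chd3 (-0.59, SE 0.13) and Chd7 (-0.60, SE 0.14) were lower, where 1.67% of all genes passed in either direction. Of 43 S-phase, 15 G1 and 16 microcephaly genes none passed at E12.5, near the 1.67% of all genes. Their medians were -0.05, -0.02 and -0.17 against -0.02 for all genes. Nfix, Tnfaip6 and Stmn4 kept their calls at E12.5 in all 32 fits that left out 1 library, and each of the other genes named here for that stage lost its call in at least 1. Gm3550 lost it in 23, Lhx2 in 20, Slc25a27 in 14, Hmgb2 in 8 and Ccdc167 in 7.

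At E14.5, E16.0 and E17.5 no gene passed (0.0% of those tested at each), with 359, 291 and 665 genes at an unadjusted p under 0.05 in edgeR. The lowest adjusted p was 0.0561 at E14.5, for B930036N10Rik, 0.266 at E16.0, for Crlf2, and 0.375 at E17.5. Both DESeq2 and blocking on the pair called 1 gene at E14.5. A test that the 4 het differences are equal across stages called 0 genes in edgeR (0.0%, 894 unadjusted), with the lowest adjusted p of 0.111 for Nfix, against 21 in DESeq2 and 133 with the pair as a block. Averaged over stages, no member of the 11 gene lists passed in the het comparison in edgeR, where 0.0511% of all genes did, while Chd8 passed with the block and in DESeq2, as given above. The median log2 fold changes of these lists lay between -0.06 and 0.05, against 0.00 for all genes.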

How the data were processed

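Single-cell RNA was measured in 32 libraries, 1 embryo each. The deposited files are filtered matrices of raw UMI counts per gene and barcode. Per the labels' protocols, libraries were made with the 10x 3′ v2 kit, and the submitters' processing notes name Cell Ranger, STAR 2.7.9a, STARsolo and mm10. Gene lists and the rule for members were chosen with earlier results of these data known. Genes are named by rule: from each list up to 3 called genes per direction, and for each comparison the largest called changes above a minimum level. Other list members are named for their role, and were chosen after their values were seen. The printed promoters are from called genes that held a match, S-phase genes that fell and G2M genes that rose. The largest changes were taken, with 1 chromosome passed over. A few genes that the rule names are not reported here. UMIs were summed over the members of each library and fitted with edgeR 4.0.16 in R 4.3.3 (quasi-likelihood, TMM, low-count filter, Benjamini-Hochberg over 11742 genes). All 8 groups shared 1 fit. Shares were tested by exact permutation or, over all stages, 100000 permutations within stage. All tests were two-sided, and p-values measure the spread between embryos. Scanpy 1.11.5 and its scrublet marked possible doublets: 0% to 6.38% of members per library were marked and kept in the main analysis. Intervals of counting error do not apply to the group values, which give the SD over embryos.

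The alternatives were DESeq2 1.42.0, no filter, a pair block, 1 stage alone, thinning to 3000 UMIs, a gate of 3 UMIs, doublets removed, other-lineage genes at 0, and each library left out. Others, which leave out stages or the 3 libraries that stood apart, were chosen after seeing the data. Pair numbers are those of litter- and sex-matched embryos per the labels: deviations from group means correlated above 0.1 in 16 of 16 pairs (0.160 to 0.763), and 15 of 16 correlated best with their own partner. Gene positions are from GENCODE M21 for GRCm38, which held 99.8% of the gene identifiers in the files. The code was tested on simulated data.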

Additional observations from a re-analysis of the deposited data

Results flagged for a closer look

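In groups of 4 libraries, a value was singled out when its gap to the nearest other was a larger part of the group's range than Dixon's test allows, which chance gives in about 1 of 20 groups, and 80 groups were examined. By this measure Krt10 was low in WT F1 at E12.5 (59.1 CPM) and in het M1 at E16.0 (68.3 CPM). Chd8 was low in het F1 at E12.5 (21.6 CPM), the shallowest library of its group, and Crlf2 was low in het M2 at E14.5 (17.1 CPM). The S-phase share was high in het M1 at E17.5 (23.1%). The member share of barcodes was lower in het in all 4 pairs at E12.5 (-9.35 percentage points) and higher in all 4 pairs at E17.5 (0.302 points). The difference between these stages was not tested.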

How the results depend on the processing

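After thinning, the WT difference in the cycling share of the gate from E12.5 to E17.5 was 2.26 points (p = 0.714, exact permutation test), Nfic at E12.5 was 0.056 and Zmat3 from E12.5 to E17.5 in WT -0.019 on the log2 scale, each opposite in sign to its main value. The stage difference in S-phase share kept its direction under every alternative run. The averaged genotype difference in member share was -2.66 points with a gate of 3 UMIs, and -2.79 to -1.69 with 1 library left out. With 1 library left out, 4 against 3 cannot pass 0.05, and the WT stage differences ranged from -32.1 to -29.2 points (member share), -25.1 to -19.1 (cycling share) and -11.5 to -10.2 (S-phase share).

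For genes averaged over stages, DESeq2 called 18, no filter 11, the pair block 18, thinning 0, leaving out E12.5 3 and leaving out E17.5 21, and leaving out 1 library 4 to 12, with 12 without het M2 at E12.5 and 11 without het F2 at E14.5. At E12.5 the counts were 761 with DESeq2, 1795 with the pair block, 0 with the stage alone, 3 after thinning and 15 to 1628 with 1 library left out. At E14.5 they were 1 with DESeq2, 1 with no filter, 1 with the pair block and 0 to 1 with 1 library left out, and at E17.5 0 to 1. For genotype by stage DESeq2 called 21, no filter 8, the pair block 133, and leaving out 1 library 0 to 60, with 60 without het M2 at E12.5. The pair block changed no other count by over 1.5 times.

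After thinning, stage counts were 2012 (WT E12.5 to E17.5), 652 (E12.5 to E14.5), 155 (E14.5 to E16.0), 229 (E16.0 to E17.5) and 2756 (het E12.5 to E17.5). With 1 library left out they were 4454 to 5222, 2454 to 3371, 512 to 880, 705 to 1299 and 5324 to 6235. Thinning leaves fewer cells and UMIs to test, and the part of each in lost calls was not tested. Of 4890 alternative values for named genes, 4641 kept direction and side of the threshold, 247 kept direction only and 2 turned. The few members at E17.5, as low as 33 in WT F1, limit what that stage can show.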
